A study of Mus musculus with 10 samples.

Results

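The matricellular and adhesive glycoproteins described here are the products of 10 genes, namely the periostin gene Postn, the tenascin genes Tnc and Tnxb, the osteopontin gene Spp1, the fibronectin gene Fn1, the collagen triple helix repeat gene Cthrc1, and Sparc, Sparcl1, Smoc1 and Smoc2 of the SPARC family. They were taken by gene name from tables of 55401 genes, and each name matched 1 gene. Bulk RNA-seq was made from the left ventricle (LV) at 4 weeks of age, with 1 library per mouse, in 5 mice with nAAC and 5 with sham surgery. All mice were labelled WT, the methods name C57BL/6 as the strain of the breeders, and the pups stayed with their mothers after surgery. In nAAC the ascending aorta is constricted by surgery in the newborn, so that the LV grows against a raised pressure, and sham mice underwent an operation without the constriction. Values are FPKM, read fragments scaled to the length of the transcript and the depth of the library. The correction for length lets them be compared between genes, within a limit given below for Postn and Sparcl1.

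Matricellular proteins are secreted into the extracellular matrix (ECM), where they bind collagens, growth factors and cell receptors more than they carry load. Most of them are abundant in developing tissue, fall in the adult and return with injury or mechanical stress, and in the heart fibroblasts are a main source. Fibronectin is a structural adhesive protein on whose fibrils other ECM proteins are laid down, and it shares the integrin receptors of tenascin-C, periostin and osteopontin. The SPARC family binds calcium and, in part, collagen, and it assists the handling of procollagen outside the cell.

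The number of genes at 1 FPKM or more was 11889 to 12455 per nAAC library and 11182 to 11721 per sham library. The depth, estimated from the ratio of FPKM to coverage, was 4.86 to 6.82 gigabases in nAAC and 5.06 to 5.24 in sham. For the comparison of groups, log2(FPKM + 1) of 11867 genes with a mean of at least 1 FPKM was tested with limma, and a gene was called changed at a Benjamini-Hochberg adjusted p below 0.05 and a DEG if its log2 FC was also above 1 or below -1. The median log2 FC of all tested genes was 0.22. Mitochondrial genes took 32.85% to 39.86% of TPM in nAAC, 46.51% to 49.78% in sham replicates 1 to 3, 33.72% in sham replicate 4 and 38.26% in sham replicate 5, and the part of this in the general shift was not tested. Of the 11867 tested genes 3211 were higher and 546 lower in nAAC. After median-ratio scaling, which sets the typical gene of all libraries level, the numbers were 1563 and 1431. Sham replicate 4 stood apart from the other sham libraries. Its deviations from them had an SD of 0.509 on the log2 scale, against 0.257 to 0.35 for the others, and they ran against transcript length (Spearman correlation -0.66 across genes, which are not replicates). Xist, transcribed from the inactive X chromosome, was above 1 FPKM in 4 nAAC and 2 sham mice. Ddx3y, a gene of the Y chromosome, was 0 in these mice and 10.4 to 16.3 FPKM in the others. By these genes the sexes were not balanced between the groups, so sex is partly confounded with nAAC. Among the mice with Xist above 1 FPKM, its values were 14.8 to 17.9 in nAAC, and 3.7 in sham replicate 4 and 10.6 in sham replicate 5. Where Xist is a covariate below, its log2 value was used, which carries this difference as well as sex.

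Promoter windows were found in the RefSeq table for 5 of the 10 genes. Those of Postn, Spp1 and Tnc are shown because the groups did not overlap in these genes and the start sites of their windows lie at most 7 bases from those of the tables. Each runs from 250 bases before to 50 bases after the start site, 5′ to 3′ on the strand of the gene. Capitals mark the letters TATAAA, searched on the plus strand. The letters GCGTG, the core of the element that AHR binds, were searched on both strands and are in none of these 3 windows. The Postn window is at chr3:54360857-54361156 (plus strand), the Spp1 window at chr5:104434861-104435160 (plus strand) and the Tnc window at chr4:64046966-64047265 (minus strand) of GRCm38.p6.
Postn: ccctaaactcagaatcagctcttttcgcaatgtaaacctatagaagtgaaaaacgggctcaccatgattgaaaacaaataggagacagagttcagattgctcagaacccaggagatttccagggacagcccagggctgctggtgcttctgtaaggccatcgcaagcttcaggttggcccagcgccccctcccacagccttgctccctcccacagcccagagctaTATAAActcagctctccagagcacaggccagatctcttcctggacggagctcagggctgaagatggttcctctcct
Spp1: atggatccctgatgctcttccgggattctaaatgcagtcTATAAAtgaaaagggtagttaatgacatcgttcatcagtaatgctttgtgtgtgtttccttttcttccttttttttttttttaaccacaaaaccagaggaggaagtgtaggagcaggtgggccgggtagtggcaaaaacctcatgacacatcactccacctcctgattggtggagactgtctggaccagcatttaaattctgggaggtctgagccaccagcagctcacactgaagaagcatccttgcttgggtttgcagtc
Tnc: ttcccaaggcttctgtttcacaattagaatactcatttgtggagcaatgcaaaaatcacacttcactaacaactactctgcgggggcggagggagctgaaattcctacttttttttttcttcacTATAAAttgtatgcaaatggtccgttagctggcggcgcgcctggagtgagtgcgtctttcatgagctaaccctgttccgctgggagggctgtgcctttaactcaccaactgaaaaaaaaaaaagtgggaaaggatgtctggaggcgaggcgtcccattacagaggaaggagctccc
TATAAA begins at position -26 from the start site in Postn, -211 in Spp1 and -126 in Tnc, and it is held by 8.32% of the 32851 windows of this length in the table. GCGTG is held by 32.4% of them. Among the other windows of the 10 genes it was found in a second Tnc window, at position 20 on the minus strand. These matches are letters in a window and do not show a site in use.

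Of the 7 genes with a sham mean of at least 1 FPKM, 6 rose in nAAC LV and 4 were DEGs. Among all tested genes with such a sham mean, 25.2% rose and 4.15% were DEGs with higher values in nAAC. In 5 of the 7 the lowest nAAC mouse exceeded the highest sham mouse, which held for 17.1% of these genes. The other 3, Spp1, Cthrc1 and Tnc, had sham means below 1 FPKM. Spp1 and Cthrc1 passed the filter only through their nAAC values, so their place among the tested genes already required a difference, and Tnc did not pass it. For all tested genes, the share that rose was 27.1%, the share of higher DEGs 5.01% and the share of higher genes without overlap 18.9%. None of the 10 fell, against 4.6% of all tested genes that fell, 0.893% that were lower DEGs and 3.46% that were lower without overlap, and Smoc1 did not pass the test.

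**Figure D1:**
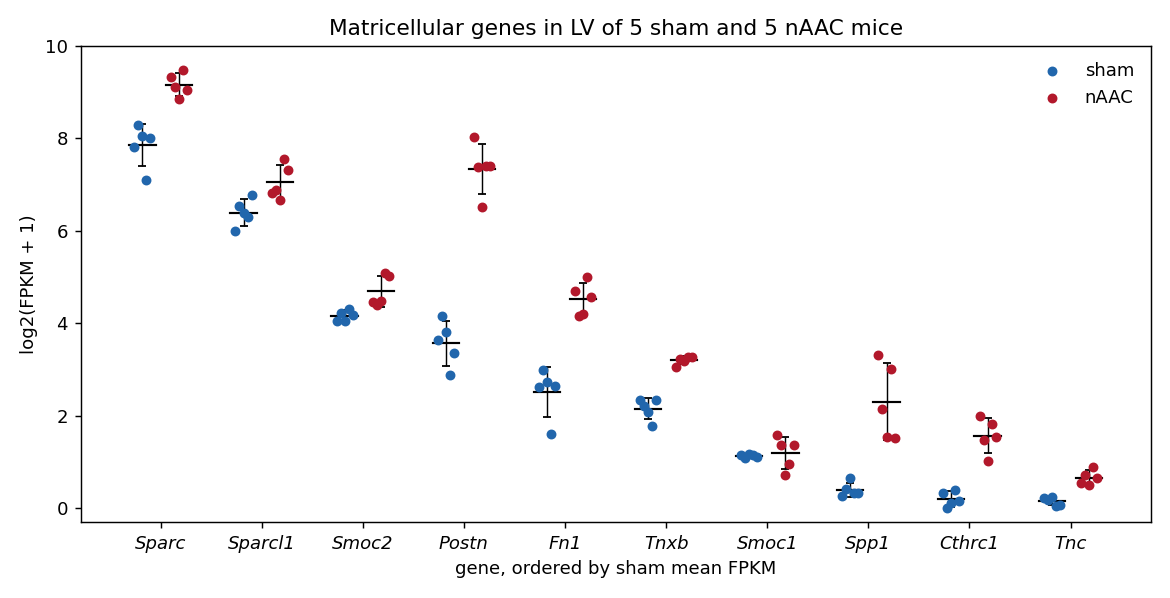
Each point is the log2(FPKM + 1) of 1 mouse (vertical axis) for each of the 10 genes (horizontal axis, ordered by sham mean), with sham in blue and nAAC in red, and bars give the mean and SD of 5 mice. Postn stands 3.78 higher in nAAC on this scale, while the groups overlap in Sparcl1 and Smoc1.

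Postn (ENSMUSG00000027750; chromosome 3 of GRCm38, 54361109 to 54391037, plus strand) encodes periostin, a protein of activated fibroblasts that binds collagen and fibronectin and promotes collagen cross-linking. It was measured at 261, 165, 90.6, 169 and 169 FPKM in nAAC replicates 1 to 5. In sham replicates 1 to 5 it was 11.5, 17.0, 13.1, 6.34 and 9.23 FPKM. The lowest nAAC mouse thus lay far above the highest sham mouse, and the ratio of the means was 14.9. This gave a log2 FC of 3.78 (standard error, SE, 0.27, limma adjusted p = 7.53e-07), and only 0.0758% of tested genes had a larger one. No gene overlaps Postn in the annotation. The log2 FC was 3.51 after median-ratio scaling and 3.60 without sham replicate 4, which had the lowest Postn of all mice.

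By the root mean square difference of centred log2 values over the 10 mice, the tested genes most like Postn were Ltbp2 (0.37), which encodes a latent TGF-beta binding protein, the collagen VIII gene Col8a1 (0.44) and the cartilage intermediate layer protein gene Cilp (0.44). The centring is over both groups, so genes with a like difference between nAAC and sham come out near. Ltbp2 had a mean of 15.9 FPKM in nAAC and 0.203 in sham, so it passed the filter only through nAAC. Col8a1 had 54.0 and 3.98, and Cilp 57.5 and 1.86.

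Spp1 (ENSMUSG00000029304; chromosome 5, 104435118 to 104441050, plus strand) encodes osteopontin, a secreted phosphoprotein and integrin and CD44 ligand made by macrophages among other cells. Its nAAC values were 8.97, 3.44, 1.91, 7.07 and 1.89 FPKM, and the sham values were 0.196, 0.332, 0.57, 0.26 and 0.255. The groups did not overlap, but the nAAC mice were spread widely, with replicates 1 and 4 well above the other 3. On the log2 scale the FC was 1.91 (SE 0.31, limma adjusted p = 4.92e-04). At these low sham values the pseudocount lowers the FC, which was 3.27 with a pseudocount of 0.1, and the ratio of the mean FPKM was 14.4. Without nAAC replicate 1 the log2 FC was 1.66. Of its family, Ibsp, Mepe and Dspp were listed at 0 in all 10 libraries.

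The macrophage markers, which could bear on Spp1, were higher in nAAC in 5 of 10 tested genes of a list of 12, against 27.1% of all tested genes. These were the complement genes C1qa, C1qb and C1qc, with Lgals3 and Trem2. Cd68 (log2 FC 0.50, limma adjusted p = 0.0744), Csf1r (0.11, 0.682), Adgre1 (0.51, 0.148), Mrc1 (0.35, 0.265) and Cd163 (-0.47, 0.137) did not pass. After median-ratio scaling 4 rose and 1 fell, against 1563 higher and 1431 lower of all 11867 tested genes. Their summed FPKM was 135, 104, 110, 201 and 150 in nAAC replicates 1 to 5 and 57.4, 65.3, 67.3, 118 and 85.4 in sham. Among nAAC mice the sum was highest in replicate 4, and Spp1 in replicate 1. C1qa, C1qb and C1qc had the highest nAAC means of the list, at 35.8, 36.8 and 28.5 FPKM, so the sum mostly follows them. The part of macrophages in the Spp1 difference was not tested. In whole tissue, more cells of a type and more RNA per cell cannot be told apart.

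Cthrc1 (ENSMUSG00000054196; chromosome 15, 39076932 to 39087121, plus strand) encodes a secreted protein of injured vessels and activated fibroblasts that takes part in Wnt signalling through the planar cell polarity branch. It was near absent from sham LV, at 0.26, 0, 0.0829, 0.323 and 0.113 FPKM in replicates 1 to 5. In nAAC it reached 2.99, 1.79, 1.03, 2.53 and 1.93 FPKM. All nAAC mice were above all sham mice, and the log2 FC was 1.37 (SE 0.17, limma adjusted p = 5.35e-05). If the deposited coverage is spread over the longest transcript of 1166 bases, the sham values rest on 0 to 1375 aligned bases per library and the nAAC values on 4261 to 17385, so the sham level is known only roughly.

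Tnc (ENSMUSG00000028364; chromosome 4, 63959785 to 64047015, minus strand) encodes tenascin-C, a large glycoprotein of embryonic ECM that returns at sites of injury. It stayed below 1 FPKM in every library and so was outside the limma fit. The nAAC values were 0.452, 0.654, 0.411, 0.865 and 0.577 FPKM, and the sham values 0.163, 0.136, 0.193, 0.0436 and 0.0595. The groups did not overlap, with a ratio of means of 4.98 and a two-sided exact permutation p of 0.0079, the smallest that 5 mice against 5 allow. When all genes with any value were tested, limma gave an adjusted p of 0.0024. Tnc thus differed between the groups at a level much lower than that of Postn or Fn1 in the same libraries. An antisense transcript, 8030451A03Rik, shares 176 exonic bases with Tnc and was at most 0.043 FPKM.

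Tnxb (ENSMUSG00000033327; chromosome 17, 34660457 to 34719815, plus strand) encodes tenascin-X, the tenascin of mature connective tissue, which organizes collagen fibrils. It was more abundant than Tnc in both groups. Its FPKM were 7.31, 8.45, 8.09, 8.74 and 8.71 in nAAC and 4.05, 3.63, 3.24, 2.45 and 4.06 in sham. The nAAC mice lay close to each other and above all sham mice. Tnxb had a log2 FC of 1.06 (SE 0.12, limma adjusted p = 3.52e-05). This was just over the DEG threshold, and after median-ratio scaling the log2 FC of 0.82 was under it. Tnxb has the longest transcript of the 10 genes, 12209 bases, and with the trend of each library on GC content and length removed its log2 FC was 0.49 (limma adjusted p = 9.05e-04). Without sham replicate 4 it was 0.97.

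Fn1 (ENSMUSG00000026193; chromosome 1, 71585520 to 71653200, minus strand) had 25.1, 17.0, 17.5, 31.1 and 22.9 FPKM in nAAC replicates 1 to 5. The sham values were 5.16, 6.99, 5.66, 2.03 and 5.23 FPKM. Sham replicate 4 was again the lowest, and even the lowest nAAC mouse exceeded the highest sham mouse. The log2 FC of 2.01 (95% confidence interval 1.49 to 2.54, limma adjusted p = 4.85e-05) was larger than that of all but 0.725% of tested genes. It was 1.76 after median-ratio scaling and 1.78 without sham replicate 4. The genes nearest in pattern were Col15a1 (root mean square difference 0.18), Fstl1 (0.21) and Col1a2 (0.23), of which Fstl1 is itself a relative of Sparc. Apol7d, annotated antisense to Fn1, shares 292 exonic bases with it and was at most 0.092 FPKM.

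**Figure D2:**
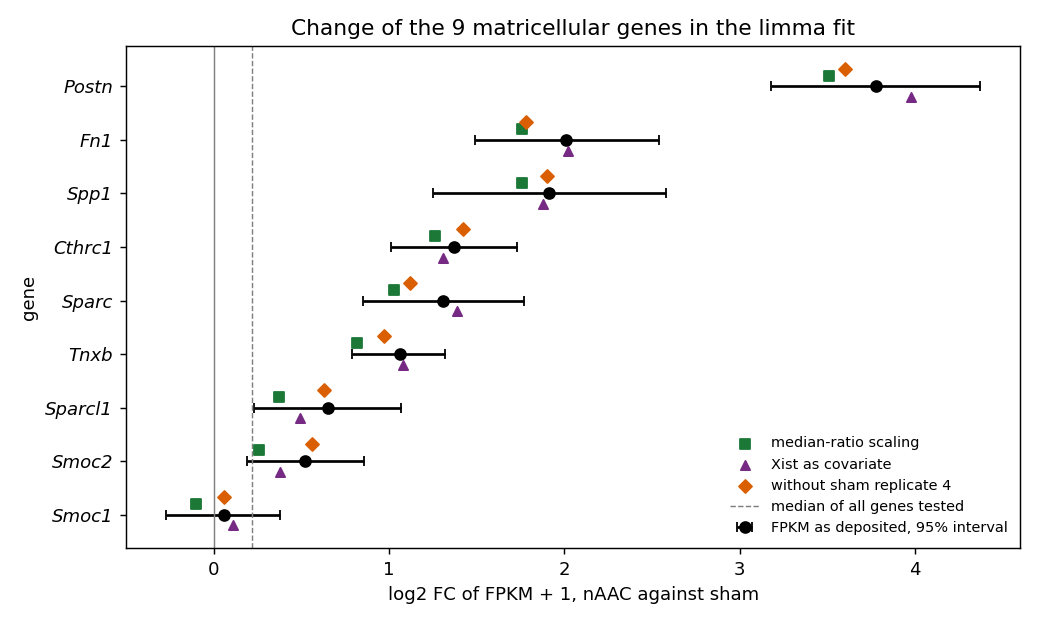
The horizontal axis is the log2 FC of FPKM + 1 in nAAC against sham for the 9 genes in the limma fit (vertical axis). Black points and bars are the FPKM as deposited with the 95% interval, and the other symbols are the same genes after median-ratio scaling, with Xist as a covariate or without sham replicate 4. Postn, Fn1, Spp1, Cthrc1, Sparc and Tnxb keep their sign and lie well to the right of 0, while Smoc1 is at 0.06 and crosses 0 after scaling.

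Sparc (ENSMUSG00000018593; chromosome 11, 55394500 to 55423183, minus strand) encodes a collagen-binding protein needed for normal collagen deposition, and it was the most abundant of the 10 in every mouse. Its nAAC values were 644, 556, 461, 708 and 528 FPKM. The sham values were 224, 311, 265, 137 and 256 FPKM. The groups did not overlap and the ratio of the means was 2.43. The log2 FC was 1.31 (SE 0.21, limma adjusted p = 5.17e-04), 1.03 after median-ratio scaling and 1.12 without sham replicate 4. Its nearest genes in pattern were the basement membrane collagen gene Col4a1 (root mean square difference 0.12), Zfp568 (0.13) and Col5a1 (0.14).

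Sparcl1 (ENSMUSG00000029309; chromosome 5, 104079111 to 104113733, minus strand), which encodes the SPARC-like protein hevin, changed less. It had 112, 117, 101, 188 and 158 FPKM in nAAC and 62.8, 92.0, 82.2, 78.1 and 108 in sham. Sham replicate 5 lay above nAAC replicate 3, and 4 of the 5 nAAC mice exceeded all sham mice. Sparcl1 had a log2 FC of 0.65 (SE 0.19, limma adjusted p = 0.0222). The call was lost after median-ratio scaling, with a log2 FC of 0.37 and an adjusted p of 0.109 from limma, and with Xist as a covariate, with 0.49 and 0.179. Without nAAC replicate 4, nAAC replicate 5 or sham replicate 1 the adjusted p from limma was 0.0604, 0.0593 or 0.0608. Endothelial cells and mural cells are known to express Sparcl1. Endothelial markers summed to 455 to 870 FPKM in nAAC and 515 to 854 in sham, and mural markers to 280 to 393 and 188 to 331, with overlap in both lists. Fabp4 was the largest part of the endothelial sum (means of 350 FPKM in nAAC and 432 in sham). Rgs5 was the largest part of the mural sum (163 in both groups). By gene, 2 of 9 endothelial and 5 of 8 mural markers rose, against 27.1% of all tested genes. The part of these cells in the Sparcl1 values was not tested.

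Smoc2 (ENSMUSG00000023886; chromosome 17, 14279506 to 14404790, plus strand) and Smoc1 (ENSMUSG00000021136; chromosome 12, 81026808 to 81186414, plus strand) encode secreted modular calcium-binding proteins, which modulate growth factor signals such as those of BMPs. Smoc2 had 21.0, 20, 21.3, 33 and 31.7 FPKM in nAAC and 15.7, 17.8, 15.5, 18.9 and 17.1 in sham. All nAAC mice were above all sham mice, the lowest of them by little, and replicates 4 and 5 stood above the others. This amounted to a log2 FC of 0.52 (SE 0.16, limma adjusted p = 0.0218). After median-ratio scaling it was 0.26, with an adjusted p of 0.185 from limma, and with Xist as a covariate 0.38 and 0.187. Without nAAC replicate 4 or 5 the adjusted p from limma was 0.0592 or 0.0615, and without sham replicate 1 or 3 it was 0.0528 or 0.0533.

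Smoc1 did not move in a common direction. Its nAAC values were 2.02, 1.58, 0.651, 0.938 and 1.57 FPKM, and its sham values 1.23, 1.13, 1.27, 1.24 and 1.17. Thus 3 nAAC mice lay above all sham mice and the other 2 below them, so the means hide a wide spread (SD 0.55 FPKM in nAAC against 0.0569 in sham). The log2 FC was 0.06 (95% confidence interval -0.27 to 0.38, limma adjusted p = 0.795), and its sign turned after median-ratio scaling (-0.10) and without nAAC replicate 1 (-0.04). The difference between the SDs was not tested.

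Without a pseudocount, ratios of pairs of these genes within a library do not depend on how libraries are scaled to each other. They can still carry a library's trend on transcript length and GC content, and no ratio was computed with such trends removed. A small pseudocount was added to both genes before the logarithm was taken. The log2 ratios with Tnc or Cthrc1, whose sham values are near the pseudocount, therefore do depend on the scale. The logarithms of 8 ratios of pairs were compared by two-sided exact permutation tests, with Benjamini-Hochberg adjustment over the 8. Col1a1, which encodes the main chain of collagen I, served as the common reference. It was not stable, at 45.9 ± 5.81 FPKM in nAAC and 10.1 ± 2.34 in sham (SD, n = 5 each). Its log2 FC was 2.09 (limma adjusted p = 7.89e-07), so a lower ratio to Col1a1 is not a fall of the other gene. Postn rose more than Col1a1. The ratio of their FPKM was 5.44, 3.85, 2.26, 3.07 and 3.87 in nAAC replicates 1 to 5 and 0.857, 1.5, 1.48, 0.852 and 0.97 in sham. The log2 ratio differed by 1.70 (exact permutation p = 0.0079, adjusted p = 0.032), or 3.24-fold, with 5 of 5 nAAC mice above all sham mice.

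When each mouse was left out in turn the difference was 1.54 to 1.86. The adjusted permutation p was then 0.063 in 7 of 10 cases, since 4 mice against 5 allow no exact p below 0.016.

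Sparc rose less than Col1a1. Their FPKM ratio was 13.4, 13, 11.5, 12.9 and 12.1 in nAAC, a narrow range, and 16.7, 27.4, 30.0, 18.5 and 26.9 in sham. The difference of the log2 ratios was -0.88 (exact permutation p = 0.0079, adjusted p = 0.032), with 5 of 5 nAAC mice below all sham mice, and it was -1.0 to -0.79 with a mouse left out, at an adjusted permutation p of 0.063 in 7 of 10 cases. Fn1 and Col1a1 kept nearly the same mean ratio, with a difference of 0.03 on the log2 scale (exact permutation p = 0.94, adjusted p = 0.94) and an SD of 0.21 in nAAC and 0.51 in sham. Between the SPARC relatives, the ratio of Sparc to Sparcl1 was 5.75, 4.74, 4.57, 3.77 and 3.34 in nAAC and 3.57, 3.38, 3.22, 1.76 and 2.36 in sham. The log2 difference was 0.65 (exact permutation p = 0.024, adjusted p = 0.048). It was 0.49 to 0.75 with a mouse left out, and in 9 of these 10 cases it did not pass (adjusted exact permutation p up to 0.095). No exact p below 0.016 was possible in these cases, so they cannot tell a weaker difference from a smaller test. The log2 ratio of Smoc1 to Smoc2 differed by -0.49 (exact permutation p = 0.21, adjusted p = 0.24), with an SD of 0.74 in nAAC and 0.16 in sham. Ratios with Tnc or Cthrc1 turned on the treatment of low values. The log2 ratio of Tnc to Tnxb differed by 0.44 (exact permutation p = 0.11, adjusted p = 0.15) with a pseudocount of 0.1 and by -0.55 with a pseudocount of 1, that of Tnc to Col1a1 by -0.52 (exact permutation p = 0.024, adjusted p = 0.048) in FPKM and by 0.01 in coverage, and that of Cthrc1 to Col1a1 by 0.98 (exact permutation p = 0.071, adjusted p = 0.11) with a pseudocount of 0.1 and by -0.72 with a pseudocount of 1.

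**Figure D3:**
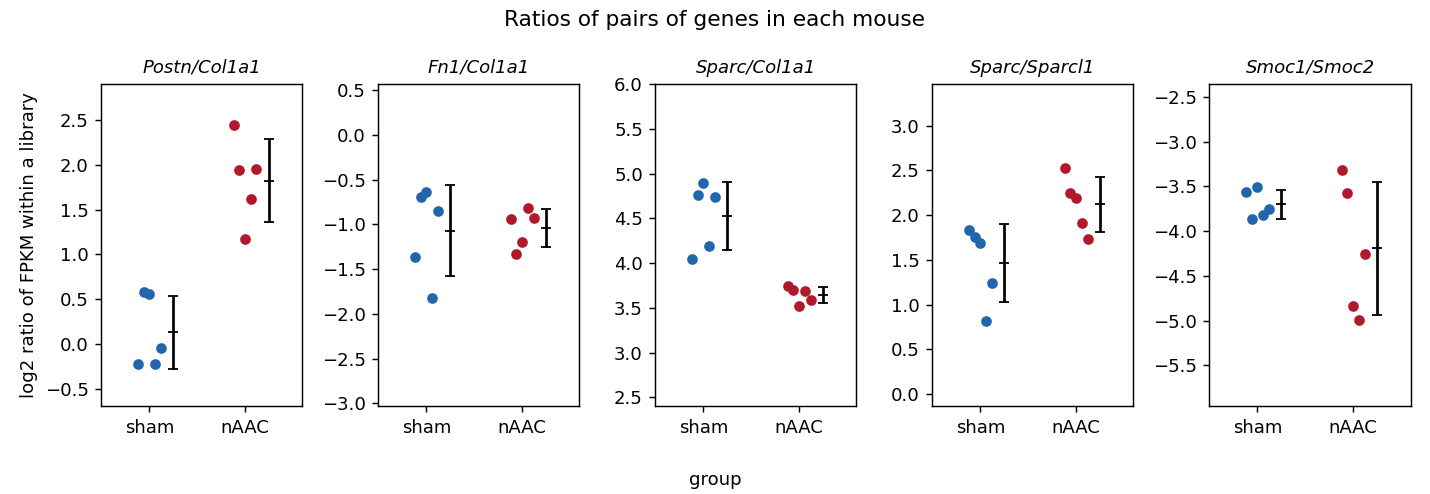
Each panel shows the log2 ratio of the FPKM of a pair of genes within each library (vertical axis, the same span in all panels) for 5 sham and 5 nAAC mice, with the mean and SD beside the points. Postn/Col1a1 is 1.70 higher and Sparc/Col1a1 0.88 lower in nAAC (difference -0.88), both without overlap, and Fn1/Col1a1 overlaps.

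The summed FPKM of the 10 genes was 951 ± 176 (SD, n = 5) in nAAC and 362 ± 78.2 (SD, n = 5) in sham, with no overlap between the lowest nAAC mouse at 702.9 and the highest sham mouse at 450.1. Sparc made up 61.2% ± 3.17 of the sum in nAAC and 65.2% ± 5.79 in sham (SD, n = 5 each). Postn took 17.7% ± 4.30 in nAAC against 3.12% ± 0.648 in sham, and Sparcl1 14.3% ± 2.71 against 23.9% ± 5.23. By FPKM, Sparcl1 was thus the second most abundant of the 10 in sham LV, whereas in 3 of the 5 nAAC mice Postn took that place. By coverage, the signal per base, Sparcl1 stayed above Postn in every nAAC mouse, with 715 against 642 in replicate 1 and 569 against 311 in replicate 2. The FPKM per coverage in nAAC replicate 2 was 0.53 for Postn and 0.206 for Sparcl1, so this rank depends on the measure. The mice differed among themselves as well. Among nAAC mice replicate 4 had the highest value of 6 of the 10 genes and replicate 1 of the other 4, while replicate 3 had the lowest of 6. Among sham mice replicate 4 had the lowest value of 5, which were Postn, Tnc, Tnxb, Sparc and Fn1, but the highest of Cthrc1 and Smoc2. The first 3 and Fn1 are the genes with the longest transcripts, from 5223 bases in Postn to 12209 in Tnxb, whereas Sparc has one of 2300 bases. The part of transcript length in these low values was not tested beyond the removal of trends given for Tnxb, which gave 3.77 for Postn, 1.62 for Fn1 and 1.01 for Sparc as log2 FC.

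The genes most like the others of the 10, by the same root mean square difference over the 10 mice, were of several kinds. Those nearest Spp1 were the ECM genes Col12a1 (0.25), Col5a2 (0.30) and Thbs1 (0.34), the last encoding the matricellular thrombospondin-1. Nearest Tnxb were Flna (0.10), which encodes the actin cross-linker filamin A, Slain2 (0.11) and Naa60 (0.11). Nearest Cthrc1 were Tuba1a (0.15), Ass1 (0.15) and Cyb561 (0.17). The list for Sparcl1 held Gusb (0.12), Pea15a (0.13) and the endothelial and progenitor cell gene Cd34 (0.13), that for Smoc2 Aldh3b1 (0.10), Pirb (0.11) and Ifi211 (0.12), and that for Smoc1 Nsun3 (0.12), Zfp280c (0.13) and Cse1l (0.13). The distance depends on how much a gene varies, so it is not compared between the 10. It includes the difference between groups, so genes with a like log2 FC come out near, such as Col12a1 (1.95) to Spp1 (1.91). Col12a1, Ass1, Aldh3b1 and Pirb had sham means below 1 FPKM (0.191, 0.704, 0.693 and 0.658). These passed the filter only through nAAC.

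**Figure D4:**
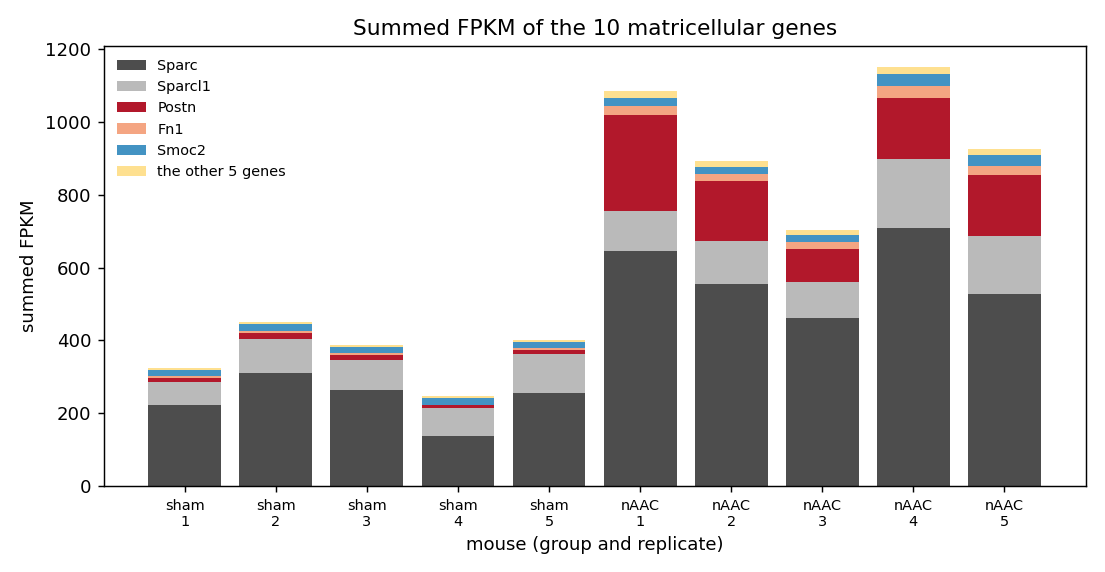
Stacked bars starting at 0 give the summed FPKM of the 10 genes in each mouse (horizontal axis), with the 5 most abundant in colors of their own. The sum is 247.1 to 450.1 in sham mice and 702.9 to 1150 in nAAC mice, and the red Postn part is 2.30% to 3.78% of it in sham and 12.9% to 24.1% in nAAC.

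The relatives of these genes were mostly silent in LV. Of 11 listed, 3 passed the filter and 2 of these rose, against 27.1% of all tested genes. Fstl1, of the SPARC family, went from 24.8 to 109 FPKM (log2 FC 2.10, limma adjusted p = 5.22e-06), and Tgfbi, the paralog of Postn, from 6.30 to 12.1 (log2 FC 0.84, limma adjusted p = 0.00156). After median-ratio scaling the log2 FC of Tgfbi was 0.59 and its call held. The tenascin genes Tnr and Tnn were at mean values of at most 0.0571 FPKM.

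Receptors were mixed. Of 18 listed, 12 passed the filter, of which 6 rose and 1 fell, against 27.1% and 4.6% of all tested genes. The median log2 FC of the 11 with a mean of at least 1 FPKM in both groups was 0.43, against 0.21 for all such genes. Itga9, the integrin chain that binds tenascin-C and osteopontin, rose from 5.30 to 19.8 FPKM (log2 FC 1.74, limma adjusted p = 1.77e-06). The fibronectin receptor chain Itga5 rose from 9.74 to 23.7 FPKM (log2 FC 1.21, limma adjusted p = 1.76e-04), and Cd44, a receptor of osteopontin, from 2.19 to 6.18 (log2 FC 1.16, limma adjusted p = 3.07e-04). The 5 that did not pass were Itgav (log2 FC 0.39, limma adjusted p = 0.085), Itga8 (0.32, 0.153), Ddr2 (0.43, 0.0773), Sdc4 (-0.25, 0.126) and Fzd6 (0.09, 0.484). Itgb1, the common integrin beta chain, had the smallest increase that passed (log2 FC 0.39, limma adjusted p = 0.0242), and it did not pass after median-ratio scaling (log2 FC 0.11, limma adjusted p = 0.587) or with Xist as a covariate (limma adjusted p = 0.0916). Itgb6 fell by 0.38 (log2 FC -0.38, limma adjusted p = 0.0455), and its nAAC mean of 0.971 FPKM was below 1, so it passed the filter only through sham. With Xist as a covariate it did not pass (limma adjusted p = 0.247). After median-ratio scaling 5 receptors were higher and 2 lower, against 1563 and 1431 of all 11867 tested genes.

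Of 18 listed matrix partners, all of which passed the filter, 16 rose and none fell, against 27.1% and 4.6% of all tested genes. In the 17 with a mean of at least 1 FPKM in both groups, 15 rose and the median log2 FC was 1.51. Of all 11238 such genes 2859 rose, and their median was 0.21. The largest changes were in Col1a1 (log2 FC 2.09), Col1a2 (2.0) and Col12a1 (1.95), the last a fibril-associated collagen with a sham mean of 0.191 FPKM that passed the filter only through nAAC. The smallest that passed were in Bmp1 (0.87), the procollagen proteinase that periostin binds, and Col6a3 (0.91). After median-ratio scaling Bmp1 was at 0.62 and still passed, and Col6a3 did not (log2 FC 0.68, limma adjusted p = 0.0692). Of 19 listed TGF-beta and myofibroblast regulators, 18 were tested and 14 rose, against the same 27.1% of all tested genes. In the 17 with a mean of at least 1 FPKM in both groups, 13 rose and the median log2 FC was 0.85. Ccn2, a matricellular TGF-beta target, went from 18.8 to 288 FPKM (log2 FC 3.8, limma adjusted p = 2.16e-07), and the fibroblast transcription factor gene Meox1 had a log2 FC of 2.52. Ltbp2, with a sham mean of 0.203 FPKM, passed the filter only through nAAC and had a log2 FC of 3.72. The smallest that passed were Tgfbr1 (0.48) and Mrtfa (0.59). Tgfbr1 did not pass after median-ratio scaling (log2 FC 0.25, limma adjusted p = 0.243) or with Xist as a covariate (limma adjusted p = 0.0904), whereas Mrtfa passed in both. After median-ratio scaling 15 partners and 12 regulators rose, and 1 regulator fell, against 1563 higher and 1431 lower of all 11867 tested genes. The lists were drawn up with earlier results of these libraries known, so their counts are not independent evidence of a direction.

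**Figure D5:**
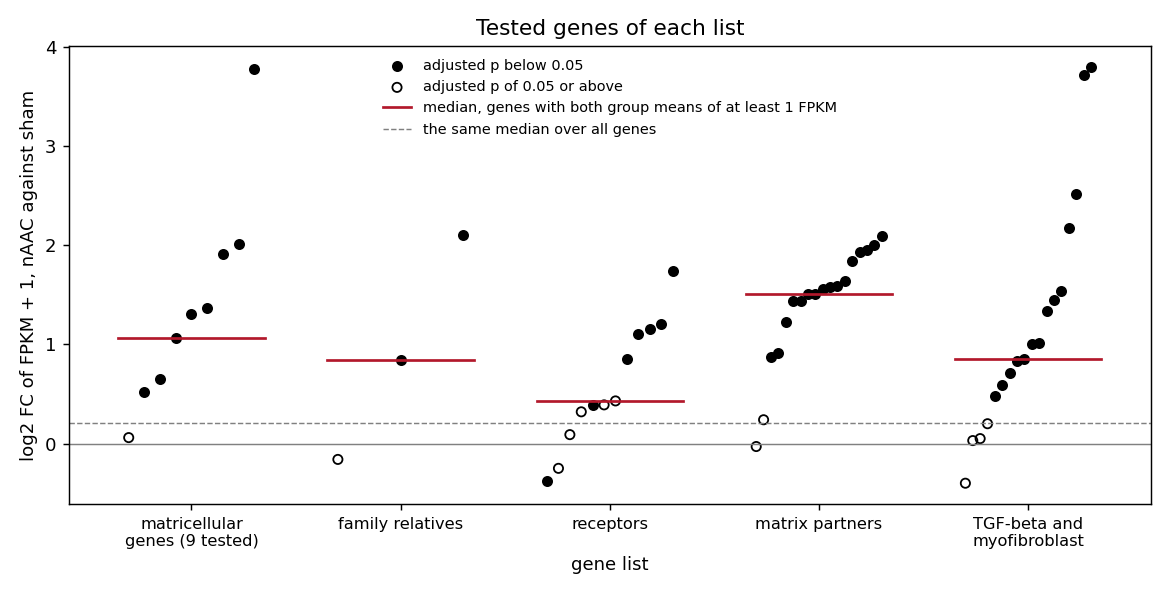
Each point is the log2 FC of a tested gene (vertical axis) in one of 5 lists (horizontal axis), filled where the limma adjusted p is below 0.05. Red lines are medians over the genes with a mean of at least 1 FPKM in both groups, 1.06 for the matricellular genes, 0.84 for relatives, 0.43 for receptors, 1.51 for matrix partners and 0.85 for regulators, and the dashed line is the 0.21 of all such genes.

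Cell type markers moved with the groups in part, and their counts are read against the 27.1% of all tested genes that rose and the 4.6% that fell. Counts after median-ratio scaling are read against 1563 higher and 1431 lower of all 11867 tested genes. Fibroblast markers rose in 6 of 10 genes, all tested, and in 4 after median-ratio scaling. Their summed FPKM of 1010 to 1470 in nAAC did not overlap with the 661 to 925 in sham. The genes differed, with Tcf21 (log2 FC 0.84, limma adjusted p = 4.28e-04) past the test, and Dcn (0.47, limma adjusted p = 0.0459) and Lum (0.65, limma adjusted p = 0.0464) narrowly past it. Pi16, Mfap5 and Col1a1 also rose, the last of which is a matrix partner above. Pdgfra (log2 FC 0.26, limma adjusted p = 0.24), Gsn (0.49, 0.0882), Dpt (0.29, 0.202) and Ddr2 (0.43, 0.0773) did not pass. Mural markers rose in 5 of 8, and after median-ratio scaling 3 rose and 1 fell. Endothelial markers rose in 2 of 9, near the share of all genes, and after scaling 1 rose and 1 fell. The cardiomyocyte markers, most of which are common to all heart muscle, rose in 1 and fell in 2 of 10, and after scaling 1 rose and 3 fell. They summed to 12800 to 21500 FPKM in nAAC and 15800 to 33700 in sham. Of 4 atrial markers 1 rose, and they summed to 17.7, 152, 250, 50.5 and 14.3 FPKM in nAAC replicates 1 to 5 and to 4.37 to 49.4 in sham. None of 5 erythroid markers passed the test. The part of any of these cells in the differences of the 10 genes was not tested.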

How the data were processed

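Total RNA of 10 LV samples was sequenced, and the deposited table of each mouse gives coverage, FPKM and TPM per gene on the mm10 (GRCm38) build. By the deposited column names, coverage is the signal per base, FPKM is relative to transcript length and library depth, and TPM to a fixed total per library. The aligner and quantifier are not given in the sources used here, and no read counts were used. The start and end of 99.41% of 55141 shared genes equal those of GENCODE M21. Rows with 1 gene ID were summed. The FPKM as deposited were analyzed in R 4.3.3 with limma 3.58.1 on log2(FPKM + 1), with a trend, for genes with a mean of at least 1 FPKM. P-values were adjusted by Benjamini-Hochberg over all 11867 genes. Fold changes on this scale understate those of low genes. Single values and ratios within a library (pseudocount 0.1) were compared by two-sided exact permutation tests in Python 3.11.15 with scipy 1.17.1. The limma step was tested on simulated data. P-values set the difference between groups against the spread between mice.

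The 10 genes, the pathway and marker lists and the ratios were chosen with earlier results of these data known. Named were all 10 genes, the 3 tested genes closest to each of them, and in each pathway list the 3 highest and 2 lowest changed genes and Col1a1, with defining markers. Other genes, such as Tnr, Tnn, Ibsp, Mepe, Dspp, Gsn, Dpt, Ddr2, Itgav, Itga8, Sdc4, Fzd6 and the macrophage markers, were named after their values were seen. Correlations between the deviations of mice with the same replicate number were -0.316 to 0.192, and no nAAC mouse was closest to the sham mouse of its number, so numbers were not used as pairs. Alternatives were median-ratio scaling, TPM, other pseudocounts, no filter, a replicate block, Xist as a covariate, removal of trends on GC content and length, and leaving out each mouse. Coverage scaled by the estimated depth was added after the data were seen. Promoter windows are from RefSeq (GRCm38.p6).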

Additional observations from a re-analysis of the deposited data

Results flagged for a closer look

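Among 36 groups of 5 values examined, Fn1 in sham was flagged because 1 mouse lay far from the others. The log2 value of sham replicate 4 was the lowest, and its gap to the next mouse was 0.73 of the whole range of the group, above the critical value of 0.71 for 5 values. Chance alone would flag about 1.8 of 36 groups. Fn1 was 2.03 FPKM in this mouse and 5.16 to 6.99 FPKM in the other 4 sham mice. Fn1 had a log2 FC of 2.01 with this mouse and 1.78 when it was left out.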

How the results depend on the processing

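The calls of Postn, Tnxb, Spp1, Sparc, Fn1 and Cthrc1 and the exact test of Tnc held in all the alternatives in which they were computed. Sparcl1 and Smoc2 lost theirs after median-ratio scaling (log2 FC 0.37 and 0.26), with Xist as a covariate (0.49 and 0.38) and with GC and length trends removed (0.44 and 0.29), and Sparcl1 without the filter (0.65, limma adjusted p = 0.0562). Smoc1 turned to -0.10 after median-ratio scaling and -0.30 with trends removed. The cause was not tested. Leaving out each mouse gave 0.52 to 0.75 for Sparcl1, 0.42 to 0.60 for Smoc2 and -0.04 to 0.18 for Smoc1.

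With a pseudocount of 1 the log2 ratio differences turned to -0.55 for Tnc/Tnxb, -0.08 for Fn1/Col1a1 and -0.72 for Cthrc1/Col1a1. That pseudocount is above every Tnc value and every sham value of Cthrc1. In coverage Tnc/Tnxb differed by 0.97, now past the threshold (adjusted exact permutation p = 0.048), and Tnc/Col1a1 by 0.01. With a mouse left out the differences were 0.49 to 0.75 for Sparc/Sparcl1, 1.54 to 1.86 for Postn/Col1a1, -0.16 to 0.14 for Fn1/Col1a1, -1.0 to -0.79 for Sparc/Col1a1, -0.60 to -0.36 for Tnc/Col1a1 and 0.64 to 1.31 for Cthrc1/Col1a1.

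Of all tested genes 3211 were higher and 546 lower, against 1563 and 1431 after median-ratio scaling, 5304 and 383 in TPM, 1593 and 393 with Xist and 1685 and 1883 with trends removed. The higher DEGs numbered 595, against 371, 1034, 494 and 318 in the same order, and 952 with a pseudocount of 0.1. The lower DEGs numbered 106, against 206 after median-ratio scaling, 206 with trends removed and 169 with a pseudocount of 0.1. With the replicate number as a block 2929 of 11867 tested genes were higher and 497 lower. Of the 9 genes in this fit 8 were still called higher, Postn kept 3.78, and no call among the 9 changed. The 8 include Spp1 and Cthrc1, which passed the filter only through their nAAC values. Tnc was not run with the block, Xist, trends or scaled coverage, and Cthrc1 not with scaled coverage. Depth limits Tnc, Spp1 and Cthrc1 most, whose sham values were all below 1 FPKM.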
